A study of Bos taurus with 12 samples.

Results

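LEF1, THEMIS, BCL11B and BANK1 are genes of T and B lymphocytes. The authors' lists of DNA methylation differences between 2 groups of cows hold 196275 CpG cytosines (sites) and 1227 tiles, which are windows 500 bases long. Of these, 190 sites and 1 tile belong to the 4 genes and are described here. A row belongs to a gene here when the authors' annotation gives that symbol as its gene. LEF1 held 69 sites, THEMIS 69, BCL11B 27 and BANK1 25, and the tile belongs to BANK1. The authors' difference between the groups on these same cows put each row in the lists, and the genes were picked from such results. All differences between the groups are therefore given as a description.

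Blood was drawn from 12 dairy cows (Bos taurus) kept under equal conditions on 1 farm. The Mastitis Susceptible Group (MSG) held 6 cows that were culled within 1 year after sampling because of complications of mastitis, an inflammation of the udder, which had not been identified at sampling. The Mastitis Resilient Group (MRG) held 6 cows that were still in the herd 1 year later and were chosen to have ages distributed like those of MSG. The labels record the group under the heading of genotype but give no genotype, breed, treatment or blood cell count. Each value is the percent of cytosines read as methylated at 1 site or tile in 1 cow. Since blood is a mixture of cells, a different share of 1 cell type and a different methylation within that cell type cannot be told apart. Read depth per value was not used, and the error given is the SD between cows. Averaged over all listed sites, single cows lay within 51.8% and 55.1%. These sites were listed for group differences in both directions, so a library's level outside the list cannot be read from this.

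LEF1 and BCL11B encode transcription factors. LEF1 binds DNA through a high-mobility-group box, pairs with beta-catenin in WNT signalling and acts together with TCF7 during T cell development and with other factors in early B cells. BCL11B is a zinc-finger protein needed for commitment to the T cell lineage, and it recruits chromatin-remodelling and histone deacetylase complexes. THEMIS and BANK1 act next to antigen receptors: THEMIS is a T cell protein that binds GRB2 and tunes T cell receptor signals during selection in the thymus, and BANK1 is a scaffold with ankyrin repeats that links LYN to calcium release in B cells. In mammals most CpGs are methylated on both copies of the chromosome, and regulatory elements active in a cell type tend to carry less methylation there.

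Most listed sites of the 4 genes were higher in MSG. Of LEF1's 69 sites 54 were higher in MSG (78.3%), as were 50 of 69 for THEMIS (72.5%), 23 of 27 for BCL11B (85.2%) and 19 of 25 for BANK1 (76.0%). Over the whole list 52.7% of the sites were higher in MSG. Neighbouring sites of a gene are not separate measurements, as the cow values below show, and nothing was read from these shares. Cows of MSG and MRG had no overlapping values at 3 of the 190 sites, 1 each in LEF1, BCL11B and BANK1, against 2.36% of all listed sites. With limma on percent methylation and Benjamini-Hochberg adjustment over the whole list, 0 of 196275 sites (0%) passed an adjusted p of 0.05, while 101964 had an unadjusted p under 0.05. By the exact permutation test 69606 of the 196275 had an unadjusted p under 0.05. Among the 190 sites, 108 had an unadjusted limma p under 0.05 and 90 an unadjusted exact permutation p under 0.05. None of the 190 passed after adjustment by either test, and the lowest limma adjusted p was 0.0781. The smallest absolute difference in the authors' deposited table was 26.5 points for LEF1, 25.8 for THEMIS, 26.0 for BCL11B and 25.4 for BANK1. Sites below the authors' minimum of 25 points were not analysed here.

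**Figure D1:**
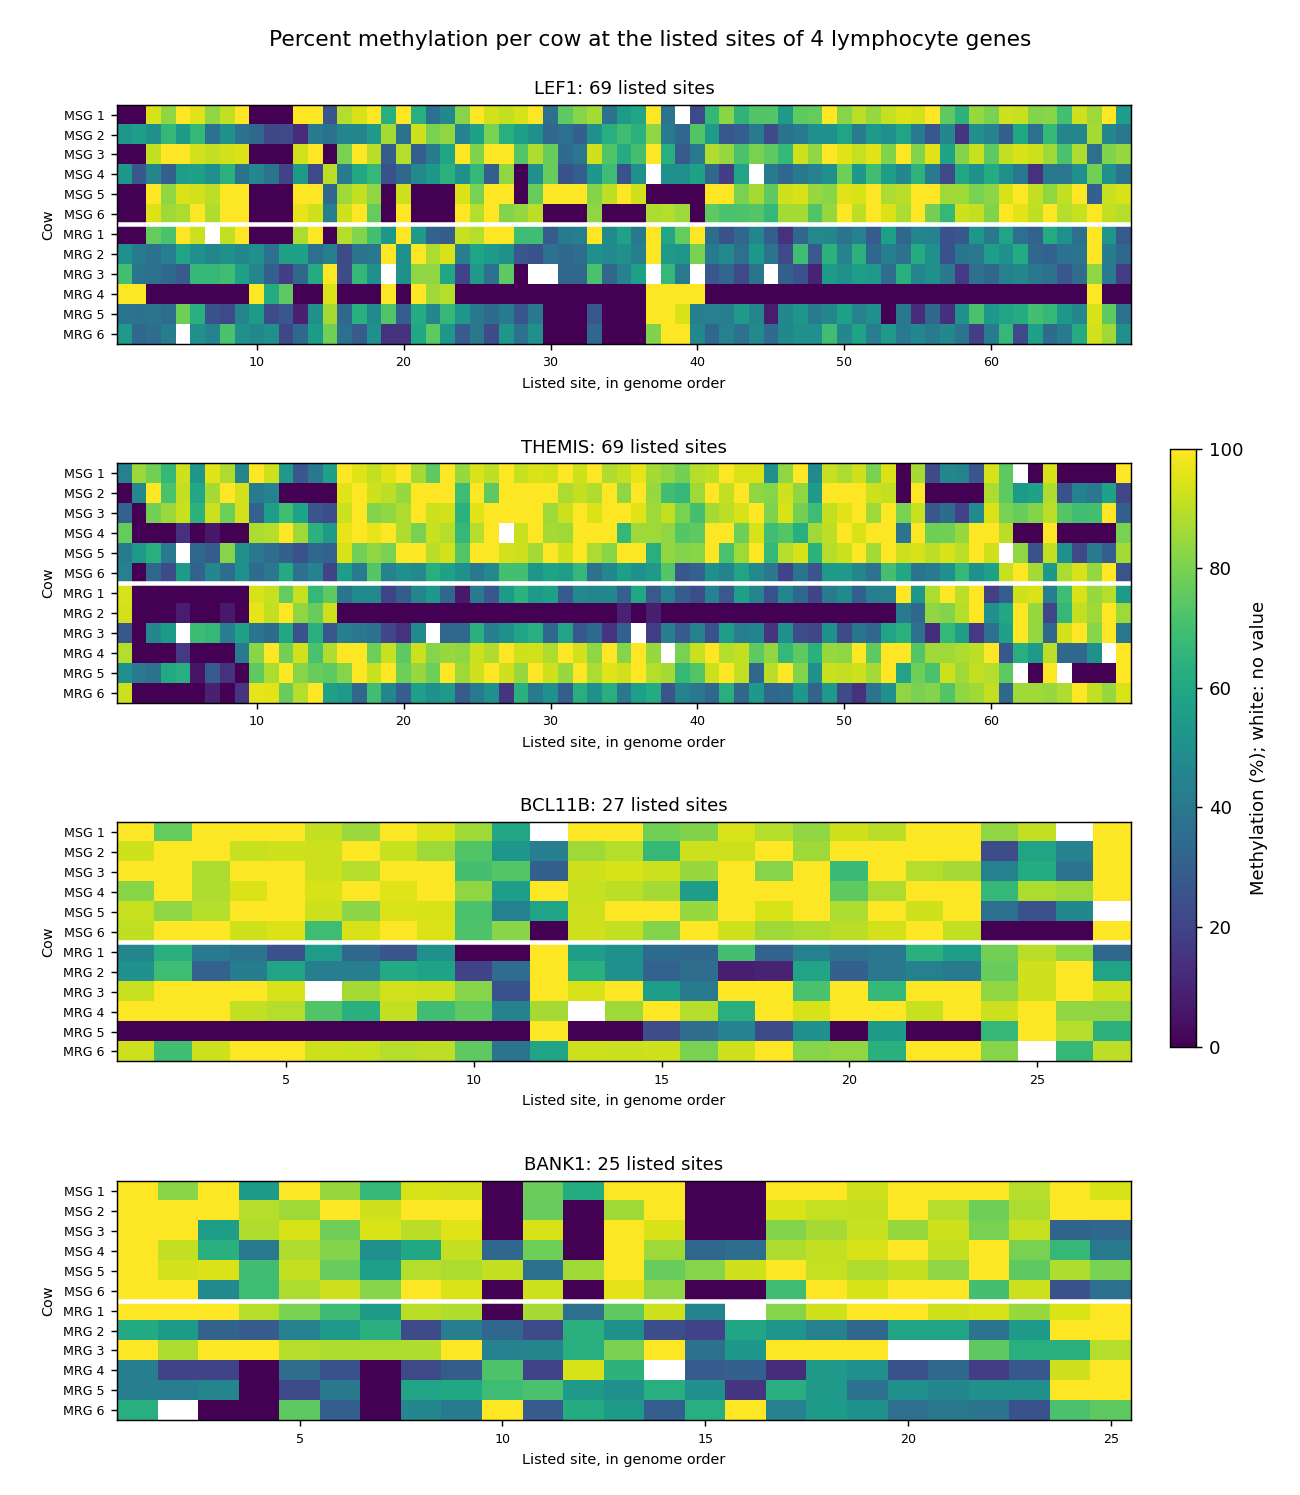
Percent methylation (colour, 0 to 100%) of every listed site of the 4 genes, with 1 row per cow (6 MSG above the white line, 6 MRG below) and sites in genome order along the horizontal axis; white cells have no value. Long stretches of 1 colour within a cow are seen, such as the value of 0 in MRG replicate 4 at the 54 LEF1 sites that were higher in MSG.

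The positions differed between the genes, and none of the 190 sites was annotated as a promoter. Coordinates are those of the deposited annotation on ARS-UCD1.2. LEF1 (ENSBTAG00000006844) lies on the plus strand of chromosome 6, from 17083864 to 17200183. Its 69 sites split into 39 upstream, up to 193 kb before the start and annotated as distal intergenic, and 30 inside, all in intron 3 of 11. BCL11B (ENSBTAG00000018019) lies on the minus strand of chromosome 21, from 64193536 to 64290496. Of its 27 sites 15 lay in intron 3 of 3, 1 in the 3' untranslated region and 11 beyond the end of the gene. THEMIS (ENSBTAG00000015615) lies on the minus strand of chromosome 9, from 65724492 to 65923926. It had 61 sites upstream and 8 inside, of which 4 lay in intron 1, 3 in intron 2 and 1 in intron 4. BANK1 (ENSBTAG00000015297) lies on the minus strand of chromosome 6, from 22695492 to 23016141, and all its 25 sites were inside. They lay in introns 1 (6 sites), 2 (6), 4 (1), 5 (7) and 6 (3) and in exon 2 of 17 (2).

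Nearest-gene annotation makes some of these assignments loose. The site closest to a start among the 4 genes was 3.83 kb upstream of THEMIS. Of THEMIS's upstream sites, 16, between 88.1 kb and 175 kb from its start, lay inside another gene, PTPRK (ENSBTAG00000020829), which encodes a receptor tyrosine phosphatase. Of these 16, 4 were higher and 12 lower in MSG. Per kb of gene, LEF1 had 0.258 listed sites inside, BCL11B 0.165, BANK1 0.0780 and THEMIS 0.0401.

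**Figure D2:**
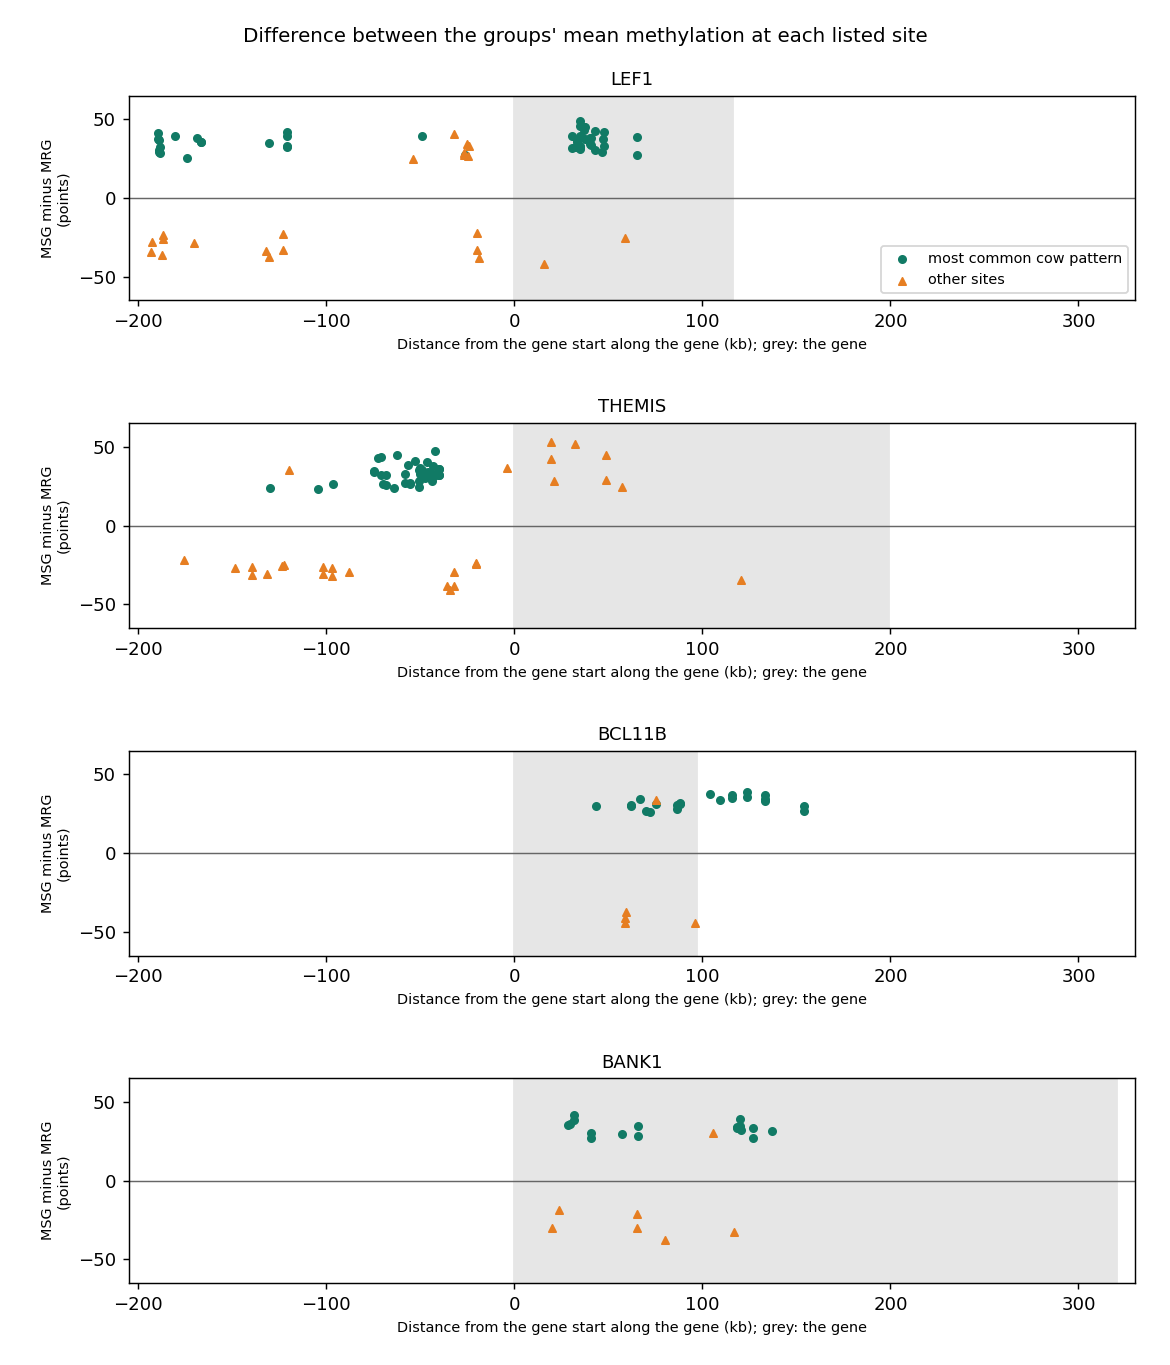
Difference between the groups' mean methylation (MSG minus MRG, percentage points) at each listed site against its distance from the gene start along the gene (kb; negative is upstream, grey is the gene). Green circles are sites of a gene's most common cow pattern (47, 41, 22 and 18 sites) and orange triangles are the other sites; in BCL11B the 11 sites beyond the gene are all higher in MSG.

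Within each gene the sites fell into a few patterns over the cows. Sites were joined by average linkage on Pearson correlation over the 12 cows, down to a mean correlation of 0.7, which gave 23 patterns. Each of the 23 held sites of 1 direction only, which the choice of sites by the group difference and the joining over all 12 cows largely fix. The most common pattern of each gene was of sites higher in MSG and together these held 128 of the 190 sites. The 12 patterns with at least 4 sites held 174 sites, and the other 16 sites fell into patterns of 1 to 3 sites.

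In LEF1 the most common pattern had 47 sites spread over 255 kb, from 189 kb upstream to 65.2 kb inside the gene. MSG cows ranged from 45.9% to 91.2% with a median of 87.3%, and MRG cows from 0% to 58.9% with a median of 43.9%. MSG replicates 1, 3, 5 and 6 stood at 86.3%, 88.4%, 91.2% and 88.9%. MSG replicates 2 and 4 stood at 45.9% and 47.7%, beside MRG replicates 2, 3, 5 and 6 at 44.2%, 42.5%, 43.6% and 44.5%. The groups overlapped, since MRG replicate 1 was at 58.9%, above these 2 MSG cows. MRG replicate 4 was at exactly 0 in all 47 sites, and in 54 of 54 LEF1 sites that were higher in MSG. MSG averaged 74.7% ± 21.7 and MRG 39.0% ± 20.04 (SD over 6 cows, as in all such pairs below unless another n is given).

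MRG replicate 1 changed level along LEF1. At the 19 upstream sites of the common pattern it stood at 89.4%, among the high MSG cows, whereas at the 28 sites in intron 3 it stood at 39.3%, among the other MRG cows. No other cow of the 12 differed by as much between the upstream and inner sites. The next were MSG replicate 1, at 93.8% and 81.2%, and MRG replicate 3, at 50.1% and 37.5%. The inner sites therefore gave 72.1% ± 21.5 in MSG and 35.4% ± 17.7 in MRG, and the upstream ones 78.6% ± 22.3 and 44.4% ± 28.5.

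A pattern among LEF1's 15 lower sites largely mirrored the order of cows in the common pattern. Its 6 sites, 170 kb to 193 kb upstream, had MRG replicate 4 at 88.5% and MSG replicates 1, 3, 5 and 6 at 4.44%, 0%, 5.56% and 7.14%. MRG replicate 1 was also at 0% there, alike to those MSG cows as at the upstream sites of the common pattern. The 6 remaining cows of that pattern lay between 37.2% and 50.3%. A further 6 sites, 23.9 kb to 32.1 kb upstream and higher in MSG, had MSG replicate 6 and MRG replicates 4, 5 and 6 at 0% and MSG replicate 5 at 97.2%, with the other 7 cows between 40.3% and 59.3%. A pattern of 5 lower sites, from 132 kb upstream to 15.8 kb inside, had MSG replicates 5 and 6 at 0% and MRG replicate 4 at 94.9%. MSG replicates 1 and 3, also high in the common pattern, stood at 46.3% and 40.3% there.

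LEF1's 2 runs with the most sites lay far upstream and in intron 3. A run is a set of sites less than 1 kb from the next. The 7 sites from 16894494 to 16895271 on chromosome 6 gave 79.3% ± 22.5 in MSG and 46.6% ± 28.2 in MRG. The 6 sites from 17118749 to 17118963, in intron 3, gave 77.2% ± 19.5 and 38.8% ± 19.7. The run in intron 3 held LEF1's single site at which the groups did not overlap, at 17118932 on the minus strand. There MSG cows ranged from 58.3% to 100% and MRG cows from 0% to 57.1%, with means of 84.8% ± 15.6 and 39.4% ± 20.3. The closest cows of the groups were MSG replicate 2 at 58.3% and MRG replicate 5 at 57.1%.

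**Figure D3:**
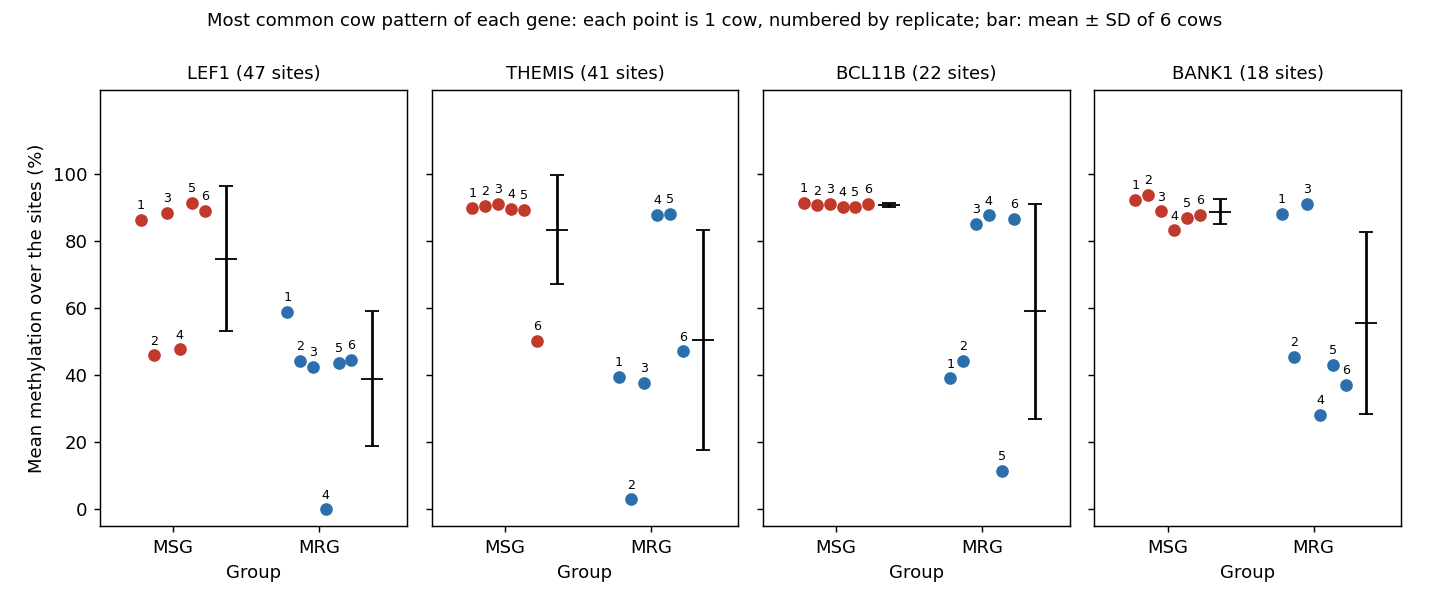
Mean methylation (%) of each cow over the sites of the most common pattern of each gene; each point is 1 cow, numbered by replicate (MSG red, MRG blue), and bars give the mean ± SD of 6 cows. In BCL11B the 6 MSG cows lie between 90.0% and 91.2% while MRG cows spread from 11.4% to 87.6%. In the other 3 genes the groups overlap. All these sites were listed for their group difference, so a gap between the groups is no separate result.

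BCL11B showed the smallest spread within MSG. Its most common pattern held 22 sites over 111 kb, from 43.3 kb after the start, in intron 3, to 154 kb, beyond the gene's end. The 6 MSG cows lay between 90.0% and 91.2%, a mean of 90.6% ± 0.507. MRG cows had a mean of 59.0% ± 32.1: replicates 3, 4 and 6 stood at 85.1%, 87.6% and 86.6%, replicates 1 and 2 at 39.0% and 44.3%, and replicate 5 at 11.4%. The cow means of this pattern did not overlap between the groups, but 3 MRG cows stood just under MSG and the other 3 far lower. These sites were listed for the group difference and joined over the same cows, which favours such a gap. At single sites of the pattern the groups did not overlap at only 1 of the 22. MRG replicate 5 was at exactly 0 in 16 of the 23 sites higher in MSG. At all 11 sites beyond the gene's end, which were all higher in MSG, it was at 0%.

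BCL11B's 4 lower sites split MSG instead. One of them lies in the 3' untranslated region and 3 lie within a short stretch of intron 3, from 64231271 to 64231385. MSG replicate 6 was at 0% in all 4, MSG replicates 2, 3 and 5 stood at 42.3%, 43.6% and 41.6%, and MSG replicates 1 and 4 at 87.1% and 84.97%. MRG cows ranged from 68.9% to 93.9%. MSG replicate 1 had a value at only 2 of the 4 sites, and MRG replicate 6, the lowest of MRG, at only 3. MSG averaged 49.9% ± 32.5 and MRG 87.1% ± 9.17. The 3 sites within the short stretch gave 48.8% ± 31.7 and 86.2% ± 6.76, and the 3 sites from 64157362 to 64157395, beyond the gene, 96.2% ± 2.003 and 61.3% ± 41.0. The groups did not overlap at 64247208 on the minus strand, in intron 3, with all 5 MSG cows that had a value at 100% and MRG cows from 33.3% to 92.9% (mean 70.4% ± 22.9).

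THEMIS had its common pattern upstream of the gene. The 41 sites lay over 89.9 kb, 39.8 kb to 130 kb before the start. MSG replicates 1 to 5 stood between 89.1% and 90.9%, and MSG replicate 6 at 50.1%. In MRG, replicates 4 and 5 stood at 87.6% and 87.9%, replicates 1, 3 and 6 at 39.6%, 37.7% and 47.1%, and replicate 2 at 2.98%. The groups overlapped, as 1 MSG cow was below 2 MRG cows, and the means were 83.3% ± 16.3 and 50.5% ± 32.7. MRG replicate 2 was at exactly 0 in 42 of the 50 THEMIS sites that were higher in MSG. The 6 sites from 65973777 to 65974735 gave 84.96% ± 16.4 in MSG and 51.9% ± 35.99 in MRG, and the 5 sites from 65966284 to 65967577 gave 82.5% ± 14.5 and 46.4% ± 32.9.

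Near and inside THEMIS another order of cows was seen. A pattern of 7 sites, from 3.83 kb upstream to 48.6 kb inside, held MSG replicates 1, 2 and 3 at 74.2%, 86.0% and 83.4%, MSG replicates 5 and 6 at 49.8% and 39.1%, and MSG replicate 4 at 2.93%. In MRG, replicates 3 and 5 stood at 56.0% and 29.9% and the other 4 cows between 0% and 8.26%. The means were 55.9% ± 32.0 and 16.6% ± 22.2. MSG replicate 4, high in the upstream pattern at 89.4%, was thus among the lowest cows here.

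Of the 19 lower sites of THEMIS, 18 formed 3 patterns of 4 to 8 sites and 1, at 66012036, stood alone. The 8 sites of the first had MSG replicate 2 at 0% and MSG replicate 4 at 83.4%, and MRG cows between 81.1% and 88.4% except MRG replicate 3 at 40.8%. Another 6 sites, 122 kb to 148 kb upstream, had MSG replicates 1 and 4 and MRG replicate 5 at 0%. A further 4 had MRG replicate 3 at 35.4% and the other MRG cows from 78.7% to 92.6%. MSG means of the 3 patterns were 45.6% ± 28.0, 43.1% ± 38.4 and 51.0% ± 25.7, against 78.1% ± 18.5, 67.4% ± 37.3 and 78.1% ± 21.5 in MRG.

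BANK1's common pattern held 18 sites over 108 kb inside the gene, 28.6 kb to 137 kb from the start. MSG cows ranged from 83.1% to 93.6% with a median of 88.2%. MRG replicates 1 and 3 stood at 87.9% and 91.1%, within the range of MSG, and MRG replicates 2, 4, 5 and 6 at 45.3%, 28.2%, 43.0% and 37.0%. The means were 88.7% ± 3.77 and 55.4% ± 27.1. Only 3 of these 18 sites had a cow at exactly 0, fewer than in the other genes' common patterns (47 of 47 in LEF1, 36 of 41 in THEMIS, 16 of 22 in BCL11B). A pattern of 3 lower sites had MSG replicates 1, 2, 3 and 6 at 0%, MSG replicate 5 at 88.5% and MRG cows from 22.5% to 87.5%.

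The groups did not overlap at 1 BANK1 site, 22950103 on the plus strand in intron 2. MSG cows ranged from 85.7% to 100% and MRG cows from 50% to 80%, with means of 96.9% ± 5.74 and 62.4% ± 12.98. This site was part of a run of 4, from 22950103 to 22951024, in which 2 sites were higher and 2 lower in MSG. The other run of 4 sites, from 22895767 to 22896070 in intron 5, was higher in MSG at all 4, with 79.7% ± 9.98 and 44.8% ± 31.7.

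Of that run, only the site at 22895767 lies within the only listed tile of the 4 genes. The tile covers chromosome 6 from 22895501 to 22896000, in intron 5 of 16 and 120 kb from the BANK1 start. MSG cows stood at 53.3%, 92.4%, 91.1%, 44.6%, 63.5% and 49.2% (replicates 1 to 6). MRG replicates 1 to 3 stood at 84.1%, 47.7% and 90.9%, and MRG replicates 4 to 6 at 1.45%, 1.11% and 1.12%. MRG replicates 1 to 3 lay within the range of MSG. The means were 65.7% ± 21.2 and 37.7% ± 42.6, a difference of 27.9 points against 27.0 in the authors' deposited table, whose q-value was 5.26e-19. The limma adjusted p over all tiles was 0.0973, and the exact two-sided permutation p was 0.149 (adjusted 0.163). Of the 1227 tiles, 56.2% were higher in MSG, 6.03% had no overlap between the groups, and 73.3% passed an adjusted limma p of 0.05. With 1 cow left out, the tile's adjusted limma p ranged from 0.0447 (without MRG replicate 3) to 0.226 (without MRG replicate 4). Only the lowest of these was under 0.05.

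Across the patterns, most cow means lay in a low, a middle or a high band. Of the 144 cow means in the 12 larger patterns, 23 were at or under 10%, 54 between 30% and 70% and 58 at or above 80%, which together make 93.8% of them. These bands were set after the values were seen and cover much of the scale, the middle one alone from 30% to 70%. The share in them therefore does not show separate levels. Single values spread more widely: of 2247 values at the 190 sites, 12.1% were at or under 10%, 34.4% between 30% and 70% and 41.6% at or above 80%. Over all listed sites these shares were 22.3%, 32.0% and 35.9%. Exactly 0 was found in 11.6% of the values of the 4 genes and in 21.7% of all values. As background, the method reads a thymine that a cow carries in its DNA as an unmethylated cytosine. Genotypes were not analysed here, and their part in these values was not tested.

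**Figure D4:**
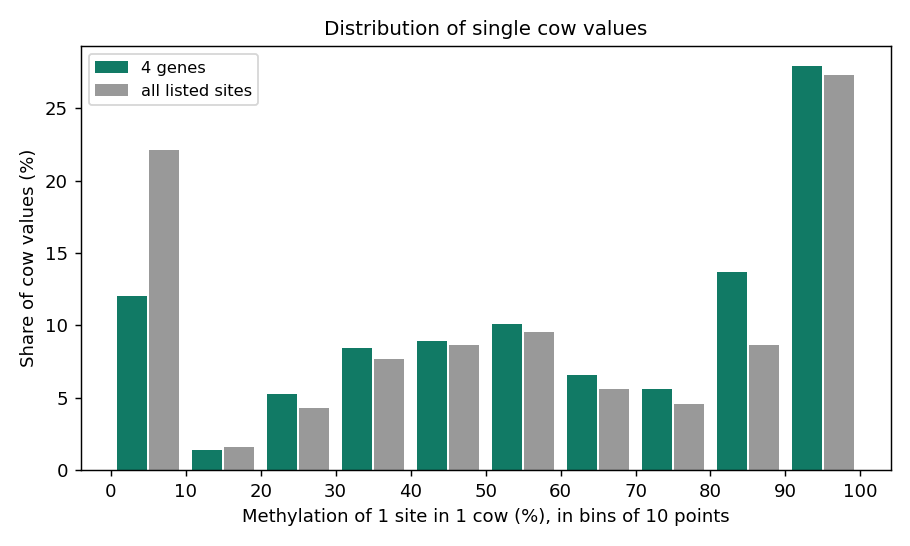
Share of cow values (%) in bins of 10 points of methylation, for the sites of the 4 genes (green, 2247 values) and for all listed sites (grey). Both distributions have peaks in the lowest and highest bins and a broad middle; the lowest bin is smaller for the 4 genes.

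The strands of a CpG were compared within each cow. Both cytosines were listed for 56 CpGs of the 4 genes, 22 in LEF1, 19 in THEMIS, 9 in BCL11B and 6 in BANK1. Each cytosine of these had passed the authors' thresholds on the same cows, so the agreement of strands is a description and no separate check. All 56 had the same direction on both strands, as did all 43073 such CpGs of the whole list. Over 658 pairs of values the median absolute difference between strands was 8.33 points, the 90th percentile 24.5 and the largest 61.9. In the whole list the median was 5.56 points. Where 1 strand was at 0, the other was also at 0 in 62 of 67 pairs (92.5%), against 96.5% in the whole list. Between the cows of 1 group, the SD at a site had a median of 21.4 points in MSG and 28.4 in MRG over the 190 sites. This median was 18.9 in MSG and 30.2 in MRG over the 146 higher sites. Over the 44 lower sites it was 33.4 in MSG and 23.8 in MRG, so the order of the groups followed the direction of the sites. Over all listed sites it was 26.0 in MSG and 26.7 in MRG.

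**Figure D5:**
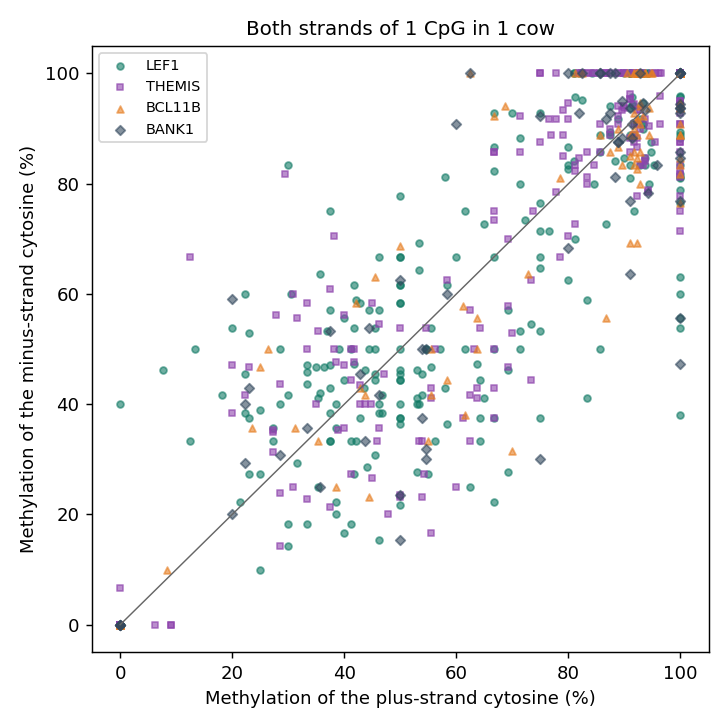
Methylation of the minus-strand cytosine against that of the plus-strand cytosine (both in %), 1 point per CpG and cow, 658 points from 56 CpGs, with the line of equality. Points gather at 0 on both strands, around the middle and at the upper end.

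Some of the other listed sites nearby followed the same cows, and some the opposite order. Within 1000 kb of BCL11B's common pattern, 97 of 305 other listed sites (31.8%) had a correlation over the 12 cows of 0.8 or more with its cow means, against 1.46% of sites on other chromosomes. They included 25 of 54 sites of EML1, which encodes a microtubule-binding protein, 11 of 34 of EVL, an actin regulator, and 7 of 22 of CCNK, a cyclin. For BANK1 the share was 41 of 157 (26.1%) against 0.972%, with 14 of 19 sites of the microRNA gene MIR2285BQ and 6 of 24 of PPP3CA, the catalytic subunit of calcineurin. For LEF1 it was 14 of 171 (8.19%) against 0.522%, and for THEMIS 11 of 347 (3.17%) against 0.899%. A correlation as strong but negative was found at 11 of the nearby sites for BCL11B, 20 for BANK1, 22 for LEF1 and 33 for THEMIS. For LEF1 and THEMIS, nearby sites of the opposite order thus outnumbered those alike. No share on other chromosomes was taken for the negative correlations, so these counts have no background beside them. These correlations describe sites that share the 12 libraries and, for the near ones, the chromosome, and they carry no test.

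The 4 genes did not share 1 order of cows. Each gene's sites were averaged per cow after the group mean was taken away. Higher and lower sites were averaged together, so opposite orders of cows within a gene can partly cancel. Between the 4 genes, Pearson's r over the 12 cows then ranged from -0.358 for LEF1 and THEMIS to 0.452 for LEF1 and BANK1. Among 2002 genes with at least 20 listed sites, those most like LEF1 were RAP1GAP2 (r = 0.902), NAT1 (0.896) and SOX14 (0.811). Most like THEMIS were LOC112446088 (0.885), RPLP1 (0.883) and PFN2 (0.865). Most like BCL11B were EOMES (0.972), ASB13 (0.921) and LOC112448627 (0.821), and most like BANK1 were COL8A1 (0.857), LOC112447952 (0.7999) and PPP3CA (0.782). PPP3CA is the only one of these 12 on the chromosome of its member gene, with 749 kb between the gene starts. With 12 cows, 1 or a few cows far from the others can set such a value.

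Genes of the same pathways were taken from lists chosen with earlier results of these data known. Of 40 genes of T cell development and T cell receptor signalling, the 4 genes left out, 25 had a listed site, 327 in all, of which 56.0% were higher in MSG. The median signed difference was 23.0 points against 22.7 over all listed sites. Over sites of both directions such a median depends on the share higher in MSG and gives no typical size. The median absolute difference over all listed sites was 32.7 points. ETS1, a transcription factor of lymphocytes, had 110 sites, 70 of them higher (56.9% ± 15.7 in MSG and 24.9% ± 19.4 in MRG) and 40 lower (58.3% ± 24.4 and 89.2% ± 3.33). RUNX3, a factor of CD8 T cells, had 11 higher and 43 lower sites, and RAG1, of the recombinase that joins receptor genes, 18 and 1. RUNX3's lower sites averaged 33.8% ± 11.7 in MSG and 67.3% ± 17.0 in MRG, and its higher sites 76.6% ± 7.995 and 47.2% ± 16.6.

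In the B cell receptor list, 17 of 30 genes had 111 sites, of which 57.7% were higher in MSG. ITPR2, an inositol trisphosphate receptor that releases calcium, had 13 higher and 24 lower sites, PLCG2, the phospholipase upstream of it, 13 and 9, and BCL6, a factor of germinal centre B cells, 7 and 3. The higher sites of ITPR2 averaged 74.7% ± 13.9 in MSG and 47.8% ± 18.6 in MRG, and its lower sites 42.0% ± 23.7 and 71.0% ± 17.7.

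In the WNT list, 35 of 52 genes had 832 sites, of which 55.6% were higher in MSG. TLE4, a co-repressor that binds LEF1, had 103 higher and 89 lower sites and 1 tile, higher in MSG. WNT5A, a WNT ligand, had 80 higher and 79 lower sites and 4 tiles, 2 of them higher. CTNNB1, beta-catenin itself, had 35 higher sites, at 95.1% ± 0.804 in MSG and 66.8% ± 26.2 in MRG, and 17 lower sites, at 2.57% ± 2.07 and 34.8% ± 25.2. Of the chromatin partners of BCL11B, 15 of 23 genes had 106 sites, 52.8% higher in MSG. ARID1B, a subunit of the SWI/SNF remodeller, had 20 higher sites and 1 lower, GATAD2A, of the NuRD complex, 7 and 10, and MBD2, a reader of methylated DNA, 9 and 8. No site of any of these lists passed the adjusted limma threshold, as for the whole list of sites.

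Genes that mark the cells of blood were also among the listed sites, and their part in the results of the 4 genes was not tested. T cell markers had 36 sites in 6 of 12 genes, 63.9% higher in MSG, led by CD3E (18 sites), CD5 (5) and IL7R (4). CD3E's 14 higher sites stood at 28.3% ± 27.4 in MSG and 1.325% ± 3.25 in MRG, and its 4 lower sites at 43.8% ± 34.3 and 71.7% ± 14.9. B cell markers had 22 sites in 8 of 10 genes, 77.3% higher, led by TNFRSF13C (9), PAX5 (3) and BLK (2), and the 9 sites of TNFRSF13C stood at 87.6% ± 3.75 and 42.2% ± 26.9. Natural killer cell markers had 55 sites in 6 of 11 genes, 76.4% higher, led by EOMES (24), NCR1 (14) and GNLY (6). Monocyte markers had 51 sites in 5 of 9 genes, 62.7% higher, among them CD163 (26) and CX3CR1 (5). Neutrophil and eosinophil markers had 82 sites in 4 of 13 genes, 91.5% higher, and 68 of these sites were of 1 gene, IL5RA, followed by MPO (10) and CXCR1 (3). Erythroid and platelet markers had 8 sites in 3 of 10 genes, 12.5% higher, from PPBP (3), SLC4A1 (3) and GP9 (2). A few genes hold most sites of each marker list, so that the shares describe those genes.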

How the data were processed

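DNA was converted enzymatically, per the labels' protocols: modified cytosines were protected by TET2 with T4-BGT, and APOBEC3A deaminated the others. Bismark, DRAGEN, fastp 0.23.1 and ChIPseeker 1.32.1 and the build ARS-UCD1.2 are given in the submitters' processing notes, without roles. The authors deposited percent methylation per cow for sites and tiles, with their difference as a score in points, p-value, q-value, nearest gene and distance to its start, per the file headers. A further 36 columns of read counts were named by number and not by cow, and were not used. Depth was therefore unknown here, and limma replaced the logistic test foreseen for read counts. Deposited values were averaged per cow, gene, direction, run and pattern. limma 3.58.1 (R 4.3.3, tested on simulated data) and an exact permutation test over 924 regroupings (smallest p 0.00216) were run over the whole tables. Descriptions used Python 3.11.15 with pandas 2.3.3 and scipy 1.17.1.

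The genes, the lists and the tests were chosen with earlier results of these data known. Replicate numbers only name cows in the order of the records, and the labels give no batch. Besides the 4 genes, the text names their 2 runs with the most sites, up to 2 sites without overlap, every tile, the 3 genes most alike, and per list the 3 genes with the most sites and any with a tile. One gene that this rule names is not reported here, although counts over lists include it. All 4 symbols were found in the names table (ARS-UCD2.0, no coordinates used).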

Additional observations from a re-analysis of the deposited data

Results flagged for a closer look

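Within groups of 6 cows, 12 of 58 group values examined had 1 cow far from the rest, by Dixon's criterion at 95% (the gap to the nearest cow over the group's range). Chance flags about 1 in 20 such groups, and many of the 58 share cows and sites.

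In LEF1, MRG replicate 4 stood at 0% over the sites higher in MSG (nearest cow 38.5%), at 0% over the most common pattern (nearest 42.5%) and at 0% over the run in intron 3 (nearest 39.6%). In THEMIS, MSG replicate 6 stood at 48.4% over the sites higher in MSG (nearest 75.3%). It stood at 50.1% over the most common pattern (nearest 89.1%). Over the 2 runs with the most sites it stood at 51.8% and 53.5% (nearest 88.7% and 83.1%). MRG replicate 3 stood at 40.8% over the 8 lower sites of THEMIS (nearest 81.1%) and at 35.4% over the 4 lower sites (nearest 78.7%). In BCL11B, MRG replicate 6 stood at 68.9% over the 4 sites lower in MSG, which are also the second pattern of the gene (nearest 87.8% in both). This cow had a value at only 3 of these sites. MSG replicate 1 stood at 100% over the 3 sites beyond the end of BCL11B, although the nearest cow was at 96.3% and the whole group between 94.3% and 100%. BANK1 had none of these.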

How the results depend on the processing

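Alternatives gave 183 values for 15 results, of which 178 were counted as unchanged, and no mean difference changed sign. The sites were listed for their group difference and averaged by direction, and the tile was listed for its difference too. This choice largely fixes the sign of each mean difference, so the unchanged signs are no separate check. A mean difference counted as unchanged if it moved by less than the SD between cows, pooled over the groups. That SD was 14.2 to 33.6 points, so this limit is wide. A share counted as unchanged within its 95% binomial interval, which takes sites as separate measurements although they are not. A count past the limma threshold had to stay the same. With only sites where no cow was at exactly 0, LEF1 kept 1 site, which was lower in MSG, so that its share went from 78.3% to 0% higher, and BCL11B kept 7, all higher (100%). No mean difference could then be given for LEF1's higher or BCL11B's lower sites. Inside the genes the share higher was 93.3% for LEF1 (30 sites) and 87.5% for THEMIS (8 sites). Counting each run of sites once, an alternative chosen after seeing the data, gave 67.9% for LEF1, 64.1% for THEMIS, 87.5% for BCL11B and 71.4% for BANK1. Leaving out each cow in turn, the mean difference over higher sites ranged from 27.7 to 40.0 points for LEF1, 25.6 to 40.5 for THEMIS, 22.5 to 37.3 for BCL11B and 27.7 to 39.8 for BANK1. The tile's ranged from 20.6 to 38.6. The number of the 4 genes' tiles past the limma threshold was 0 to 1, being 1 without MRG replicate 3, and that of sites stayed at 0. Over the whole lists, 74 sites passed without MSG replicate 6, 1 without MSG replicate 4 and 0 in the other 10 cases, and leaving out 1 cow gave 397 tiles (without MSG replicate 3) to 797 (without MSG replicate 5) against 899. On the logit scale 621 tiles passed. Depth was not used, so differences within the counting error of a site cannot be told. No paired analysis was possible because replicate numbers only name cows and pair none across the groups.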
